A study of Homo sapiens with 6 samples.

Results

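IRAK1, TAK1 and Cot are kinases that stand between inflammatory receptors and the NF-κB and MAP kinase pathways. All printed peptides listed under these 3 names were examined, which gave 8 of the 300 peptides on the array: 5 from IRAK1 (P51617), 2 from TAK1 (O43318, gene MAP3K7) and 1 from Cot (P41279, gene MAP3K8, also called Tpl-2). They were taken by name and not picked by their measured values, but the choice was made with earlier results of these data known. The cells were THP-1, a human monocytic leukaemia line, made macrophage-like with the phorbol ester PMA and rested in medium before use, which holds for all 3 groups. Cells were left unstimulated, or received 20 ng/ml of recombinant IL-17A/F or of recombinant IL-32γ for 15 min (called IL-17 and IL-32 here), and each group has 2 arrays, 1 per biological replicate, called experiments 1 and 2. A value is the brightness of a phosphoprotein stain on a printed peptide after lysate was applied, so it reads phosphorylation of the peptide by the lysate and not the amount or state of the kinase itself. The arrays hold no measure of protein levels by which the macrophage label could be checked.

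Toll-like and IL-1 receptors recruit IRAK1 through the adaptor MyD88 and the kinase IRAK4, and phosphorylated IRAK1 passes the signal to the ubiquitin ligase TRAF6. TRAF6, which also serves the IL-17 receptor, leads to TAK1, and TAK1 phosphorylates IKK-beta on the branch to NF-κB and MAP kinase kinases on the branches to JNK and p38. Cot is held inactive by the NF-κB precursor p105 and, once released by IKK activity, phosphorylates MEK1 and MEK2 on the branch to ERK. In IRAK1, T209 and T387 are sites of stepwise activation, and T387 and S376 lie in the activation loop. The printed TAK1 sites T184 and S192 lie in its activation loop, and S400 of Cot lies in its C-terminal tail.

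The members differed first in whether they gave signal at all. Foreground exceeded the local background of the spot on 18 of 18 spots for IRAK1 T100, IRAK1 T209 and Cot S400, and on 17 of 18 for IRAK1 T387. The single spot of T387 below background, on the IL-32 array of experiment 1, had a ratio of foreground to background of 0.984. No spot of IRAK1 S376, IRAK1 S568 or TAK1 T184 exceeded its background, and 1 of 18 spots of TAK1 S192 did, with a ratio of 1.01 on the IL-17 array of experiment 1. The 3 IRAK1 threonine peptides lay above background and both IRAK1 serine peptides below it, while the threonine peptide TAK1 T184 lay below. Over the array, all 18 spots were above background for 56.9% of 58 threonine peptides and 35.7% of 129 serine peptides, and none for 19.0% and 29.5%. Over the 298 human peptides, 53.0% had all 18 spots above background and 17.8% had none, against 3 of 8 and 3 of 8 here. Printed peptides differ in sequence and dye binding, so their brightness is not compared between peptides.

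**Figure D1:**
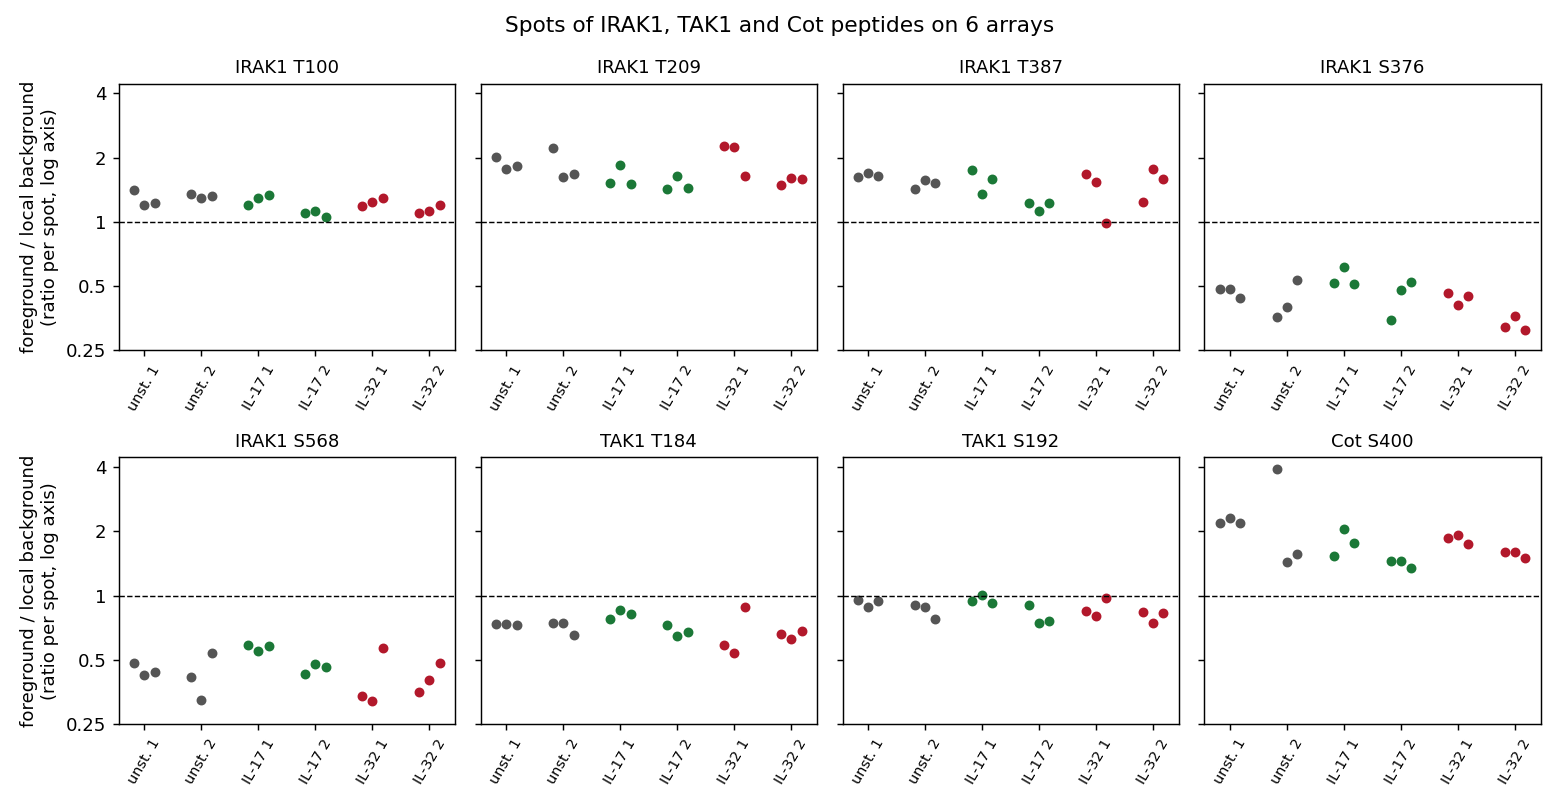
Ratio of foreground to local background (log axis) of every spot of the 8 peptides, with 3 spots on each of the 6 arrays (grey unstimulated, green IL-17, red IL-32); the dashed line marks a ratio of 1. IRAK1 T100, T209 and T387 and Cot S400 lie above the line except for 1 spot at 0.984, and the other 4 peptides lie below it except for 1 spot at 1.01.

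The arrays themselves differed in signal. The median ratio of foreground to background over all 900 spots was 1.32 and 1.34 on the unstimulated arrays, 1.31 and 1.16 on the IL-17 arrays and 1.27 and 1.26 on the IL-32 arrays. Quantile normalization between arrays was therefore used before comparing groups, so a normalized difference states how a peptide moved against the rest of its array. Groups were compared with limma over 298 peptides, and normalized values are background-corrected intensities on the log2 scale. This scale is compressed against background-subtracted signal. On the unstimulated array of experiment 1, IRAK1 T209 and T100 had subtracted signals of 17909 and 5123 but normalized values of 12.22 and 11.50. Folds and intervals of the fit are on this scale and can understate a change in signal.

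IRAK1 T209, the site phosphorylated early in IRAK1 activation, had the largest difference with IL-17 of the 4 members above background, and that difference did not pass the test. Its mean foreground on unstimulated arrays was 39433 over a background of 21524 in experiment 1 and 35728 over 21066 in experiment 2. On IL-17 arrays it was 31705 over 19712 and 43828 over 29452, and on IL-32 arrays 24735 over 13212 and 43843 over 28216. The raw intensities follow the local background, which ran highest on the IL-17 and IL-32 arrays of experiment 2. The normalized log2 value was 12.22 and 12.08 in unstimulated cells, 12.21 and 12.45 with IL-17, and 12.08 and 12.29 with IL-32. The IL-17 array of experiment 2 was the highest of the 6, while that of experiment 1 lay just under the unstimulated array of the same experiment, so the groups overlapped. The difference of IL-17 from unstimulated was 0.18 ± 0.12 (SE of the fit) on the normalized log2 scale, a fold on that scale of 1.13 with a 95% interval from 0.922 to 1.40. It was 0.37 in experiment 2 and -0.0046 in experiment 1, and it ran from 0.060 to 0.31 when 1 array was left out. With IL-32 the difference was 0.03 ± 0.12, with -0.14 in experiment 1 and 0.20 in experiment 2. Without the unstimulated array of experiment 2 this IL-32 difference was -0.031, and without the IL-32 array of experiment 2 it was -0.076.

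The direct comparison of IL-32 with IL-17 at T209 gave -0.15 ± 0.12, with -0.13 and -0.17 in the experiments and a range from -0.28 to -0.025 when 1 array was left out. It was lower after IL-32 in each experiment, yet the 2 IL-32 arrays did not lie below both IL-17 arrays. The direction of the IL-17 difference also depended on the scale. The ratio of foreground to background at T209 was 1.76 ± 0.10 (SD, n = 2) in unstimulated cells, 1.55 ± 0.09 with IL-17 and 1.71 ± 0.23 with IL-32, and both IL-17 arrays lay below both unstimulated arrays on this scale. This ratio is not normalized between arrays. Its median over all spots was also lower on both IL-17 arrays (1.31 and 1.16) than on both unstimulated arrays (1.32 and 1.34). After quantile normalization of the spot ratios the IL-17 difference of T209 was -0.048 ± 0.12. In the deposited value table, which holds background-subtracted signal scaled per array, T209 read 1.25 and 1.15 in unstimulated cells, 1.28 and 1.77 with IL-17, and 1.15 and 1.32 with IL-32.

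IRAK1 T387, in the activation loop, differed more between the 2 arrays of each cytokine than between the unstimulated arrays. Mean foreground over background was 36862 over 22269 and 38301 over 25507 in unstimulated cells, 31326 over 20233 and 31797 over 26721 with IL-17, and 24508 over 19327 and 32640 over 21413 with IL-32. The normalized log2 value was 11.97 and 11.92 in unstimulated cells, 12.13 and 11.69 with IL-17, and 11.65 and 11.97 with IL-32. The unstimulated arrays lay close together, and for each cytokine 1 array lay below both of them. The other array of each cytokine lay above both, for IL-32 by less than the rounding of the values. The lowest value was in experiment 1 for IL-32 and in experiment 2 for IL-17. The difference from unstimulated was -0.03 ± 0.17 for IL-17 (0.17 in experiment 1 and -0.23 in experiment 2) and -0.13 ± 0.17 for IL-32 (-0.31 and 0.05). Between IL-32 and IL-17 it was -0.10 ± 0.17, with -0.48 and 0.28.

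Single arrays set these directions at T387. The IL-17 difference was 0.19 without the IL-17 array of experiment 2, and the IL-32 difference was 0.018 without the IL-32 array of experiment 1. The difference between the cytokines was 0.12 without the IL-17 array of experiment 1 and 0.046 without the IL-32 array of experiment 1. On that IL-32 array the 3 spots had ratios of 1.67, 1.53 and 0.984. They read 11991 over 7173, 32295 over 21109 and 29237 over 29698. The background of the last was the highest of these, but third-listed spots of that array had a median background of 27500. When subtracted spots were set to a floor of 1 before averaging, the IL-32 difference was -2.40 ± 1.75, and with the median of the spots the difference between the cytokines was 0.019. The deposited value table read 1.02 and 1.00 in unstimulated cells, 1.19 and 0.624 with IL-17, and 0.516 and 0.951 with IL-32, so the same 2 arrays were the lowest there.

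IRAK1 T100, in the N-terminal part of the protein, had a small spread on the normalized scale and a larger one in the deposited value table. Mean foreground over background was 26055 over 20932 and 24686 over 18838 in unstimulated cells, 24347 over 18628 and 30378 over 27807 with IL-17, and 16838 over 13338 and 33958 over 29938 with IL-32. The normalized log2 value was 11.50 and 11.57 in unstimulated cells, 11.66 and 11.52 with IL-17, and 11.55 and 11.49 with IL-32. The groups overlapped, and the highest array was that of IL-17 in experiment 1. The IL-17 difference was 0.05 ± 0.08 (0.16 and -0.05 in the experiments), the IL-32 difference -0.02 ± 0.08 (0.04 and -0.09), and that between the cytokines -0.07 ± 0.08 (-0.12 and -0.03). The 95% interval of the fold on the normalized scale ran from 0.899 to 1.19 for IL-17 and from 0.854 to 1.13 for IL-32. The IL-17 difference was -0.020 without the IL-17 array of experiment 1. The IL-32 difference was 0.010 without the unstimulated array of experiment 2 and 0.0064 without the IL-32 array of experiment 2. In the deposited value table T100 read 0.358 and 0.457 in unstimulated cells, 0.611 and 0.316 with IL-17, and 0.349 and 0.340 with IL-32, where both IL-32 arrays lay below both unstimulated arrays and the IL-17 arrays were the highest and the lowest. The standard error of its log2 differences was 0.083 on the normalized scale and 0.39 in that table.

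Cot S400 had the largest standard error of the 8 members on the normalized scale, 0.24 on log2. In the deposited value table its 0.35 was below 0.39 for T100 and 0.49 for T387, and with spots floored at 1 its 0.57 was below 1.75 for T387. Mean foreground over background was 37501 over 16826 and 29945 over 18623 in unstimulated cells, 25902 over 13855 and 30579 over 21550 with IL-17, and 24738 over 13751 and 51118 over 32638 with IL-32. The normalized log2 value was 12.42 and 11.84 in unstimulated cells, 12.27 and 12.03 with IL-17, and 12.06 and 12.52 with IL-32. The order of the groups turned around between experiments: unstimulated was highest and IL-32 lowest in experiment 1, and IL-32 was highest and unstimulated lowest in experiment 2. The IL-17 difference was 0.02 ± 0.24 (-0.15 and 0.19), the IL-32 difference 0.16 ± 0.24 (-0.36 and 0.68), and that between the cytokines 0.14 ± 0.24 (-0.21 and 0.50).

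The standard error of Cot S400 was larger than that of all but 9 of the 298 peptides, against a median of 0.10 over all of them. Its 95% interval of the fold on the normalized scale ran from 0.673 to 1.53 for IL-17 and from 0.742 to 1.68 for IL-32. A change of 1.5-fold upward on that scale lies inside both. The IL-17 difference was -0.10 without the IL-17 array of experiment 1 and -0.27 without the unstimulated array of experiment 2. The IL-32 difference was -0.13 without the unstimulated array of experiment 2 and -0.075 without the IL-32 array of experiment 2, and the difference between the cytokines was -0.096 without that last array. On the unstimulated array of experiment 2 the spots read 10318 over 2639, 41047 over 28624 and 38471 over 24605, with ratios of 3.91, 1.43 and 1.56. On the IL-17 array of experiment 1 a spot of similarly low background, 4932 over 3235, had a ratio of 1.52. The deposited value table read 1.45 and 0.885 in unstimulated cells, 1.29 and 1.11 with IL-17, and 1.09 and 1.56 with IL-32, with the same order of groups within each experiment. TAK1 and the IRAK1 serine peptides sit at the floor of that table on every array.

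**Figure D2:**
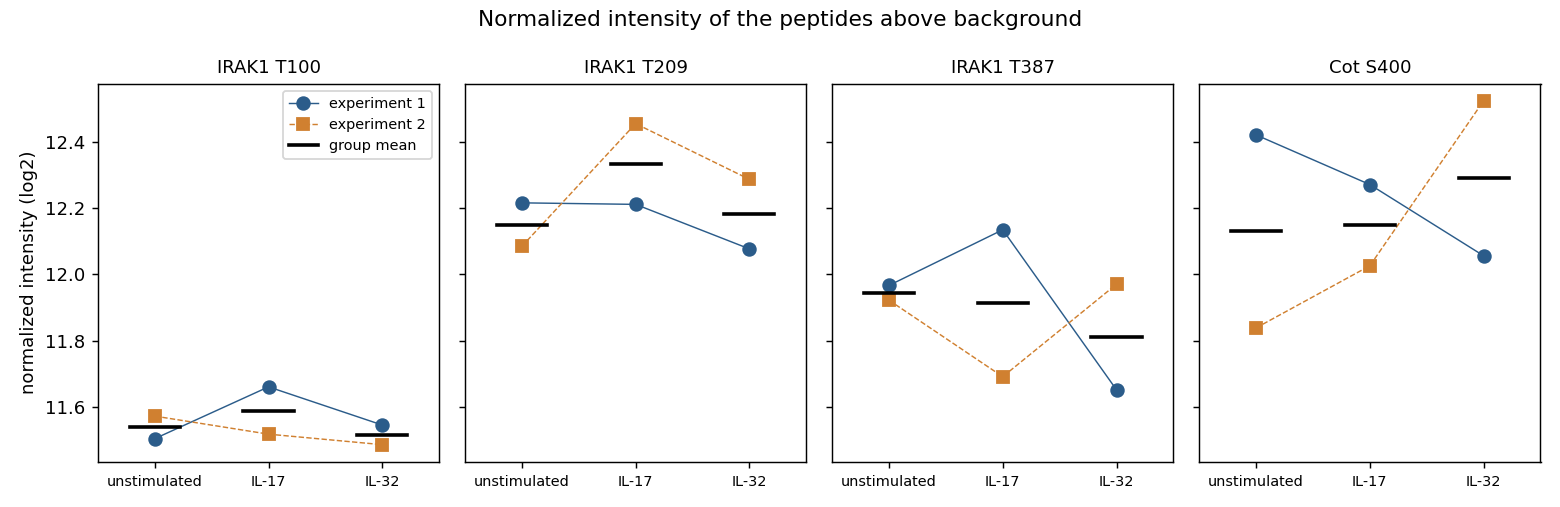
Normalized intensity (log2) of the 4 peptides above background in unstimulated, IL-17 and IL-32 cells, with circles for experiment 1, squares for experiment 2 and bars for the group mean (n = 2). Lines join arrays of one experiment; for Cot S400 they cross, from 12.42 down to 12.06 in experiment 1 and from 11.84 up to 12.52 in experiment 2.

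The 4 members below background have no fold, and their values describe how far below they lay. IRAK1 S376, in the activation loop near T387, had ratios of mean foreground to mean background of 0.467 and 0.418 in unstimulated cells, 0.542 and 0.447 with IL-17, and 0.435 and 0.332 with IL-32. IRAK1 S568 had 0.446 and 0.408 in unstimulated cells, 0.573 and 0.455 with IL-17, and 0.442 and 0.410 with IL-32. Both serine peptides of IRAK1 were highest on the IL-17 array of experiment 1. On this ratio both IL-17 arrays lay above both unstimulated and both IL-32 arrays for S568, and above both IL-32 arrays for S376, while the normalized values of the groups overlapped. How many other peptides were separated on this ratio was not counted. TAK1 T184 had 0.735 and 0.724 in unstimulated cells, 0.822 and 0.684 with IL-17, and 0.773 and 0.657 with IL-32. TAK1 S192 had 0.926 and 0.864, 0.945 and 0.807, and 0.917 and 0.808 in the same order. For both TAK1 sites the cytokine arrays of experiment 2 were the lowest, and no array of any group brought the mean of a TAK1 site above its background. Phosphorylation of the TAK1 activation loop peptides was therefore not detectable on these arrays, with or without cytokine.

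No member passed the adjusted threshold of 0.05 in any comparison, and no peptide of the array did (background 0% in each of the 3 comparisons; limma, smallest adjusted p of a member 0.997 for IL-17, 0.996 for IL-32 and 0.997 for IL-32 against IL-17). The criteria the study states, a change over 1.5-fold with p under 0.06, were applied here to the limma fit of normalized values. At them 0 members and 0% of all peptides were called in each comparison. A limma fit of the deposited value table gave 1, 3 and 3 peptides at them for IL-17, IL-32 and IL-32 against IL-17. On the normalized scale, an unadjusted limma p under 0.05 was reached by 0 of 8 members in each comparison, against 0% of the 298 peptides for IL-17, 1.34% for IL-32 and 1.34% for IL-32 against IL-17. With the replicate number as a block these were 0 members in each comparison, and 4, 8 and 10 of the 298 peptides. For 2 arrays a group, the smallest two-sided p of an exact permutation test would be 0.333. Over the 4 members that have a fold, the median log2 difference was 0.03 for IL-17, 0.0046 for IL-32 and -0.09 for IL-32 against IL-17. The medians over all human peptides that have a fold were 0.00077 (223 peptides), -0.0052 (222) and -0.0029 (224).

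On the normalized scale, none of the 4 members above background had both arrays of a group above or below both arrays of the other, in any of the 3 comparisons. Over all peptides, 8.05% lay wholly higher and 9.06% wholly lower with IL-17, 12.8% and 11.7% with IL-32, and 12.8% and 9.4% with IL-32 against IL-17. Including members below background, 1 of 8 was wholly separate in 1 comparison, TAK1 S192 in IL-32 against IL-17, by 0.02 on the log2 scale and without a spot above background in either IL-32 array. Other scales did separate some members above background, but the share of all peptides separated on those scales was not counted. With IL-17, T209 lay wholly below unstimulated on the ratio of foreground to background, as did the median ratio over all spots. In the deposited value table T209 lay wholly above unstimulated with IL-17. With IL-32, T100 and T387 lay wholly below unstimulated in that table. Back on the normalized scale, the 4 members above background had opposite signs in the experiments in 4 of 4 cases for IL-17 and 4 of 4 for IL-32. The experiments gave one sign for 38.6% of all 298 peptides with IL-17, 38.6% with IL-32 and 47.0% in IL-32 against IL-17, where 2 of the 4 members (T100 and T209) did so. These shares, like those of wholly separate peptides, are over all 298, of which 17.8% had no spot above background. They are therefore not shares over peptides like the 4 members. The IL-17 and IL-32 comparisons share the unstimulated arrays.

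**Figure D3:**
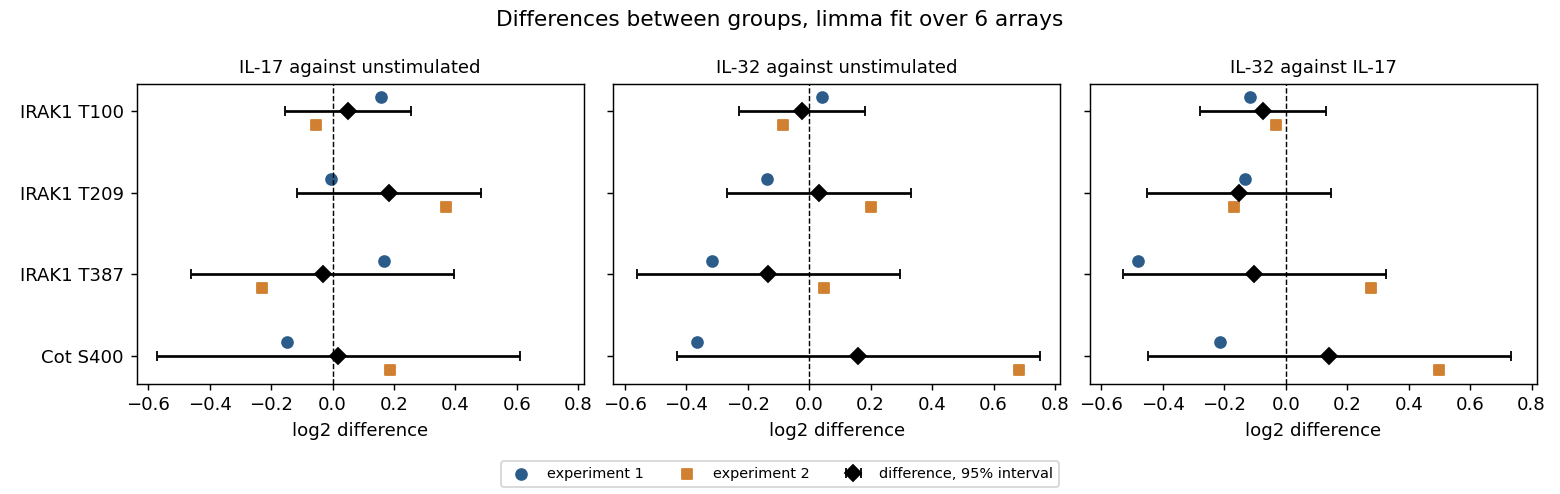
Log2 difference between groups for the 4 peptides above background, as black diamonds with the 95% interval of the limma fit, and by experiment as circles (experiment 1) and squares (experiment 2). Every interval crosses 0, and only T100 and T209 in IL-32 against IL-17 have both experiments on one side.

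The peptides whose values moved most like each member were found by the root mean square difference of mean-centred normalized log2 values over the 6 arrays, among 205 other peptides with a spot above background on every array. For IRAK1 T209 they were PKCE T710 (0.058), CD45 Y1216 (0.060) and DAPK1 S308 (0.061), against a median of 0.16 over all 205 and 0.13 for a peptide that did not vary at all. For IRAK1 T387 they were PPP2CA T304/7 (0.089), IRF-5 S437 (0.092) and Lyn Y507 (0.099), with a median of 0.21 and 0.17 for an unvarying peptide. For IRAK1 T100 they were Fos T232 (0.037), IRF-3 S402/5 (0.042) and CXCR4 Y157 (0.046), with a median of 0.12. An unvarying peptide would lie at 0.058, and these distances were closer to that value than those of the other members were to theirs. For Cot S400 they were IL4R Y713 (0.13), FGFR3 Y760 (0.13) and HIF2A T840 (0.14), with a median of 0.26 and 0.24 for an unvarying peptide. No member was among the nearest peptides of another member.

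The rest of the pathway around these kinases was represented by 51 peptides in 6 roles, and 12 of them stayed below background on every spot. The list was drawn up with earlier results of these data known, and after adjustment over all peptides 0 of 51 passed in each comparison. Counts of signs are given over the peptides with a fold and describe differences that did not pass. With IL-17, 18 of 37 differences were positive (median -0.0022), beside 113 of 223 over all human peptides, and 0 had an unadjusted p under 0.05 in limma. With IL-32, 15 of 36 were positive (median -0.03), beside 107 of 222, and the 4 peptides of the whole array with such a p (1.34%) are all in the list. For IL-32 against IL-17, 13 of 37 were positive (median -0.02), beside 109 of 224, and 3 of the 4 such peptides of the array are in it.

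The single adaptor peptide, from the receptor-interacting kinase RIPK1, gave 0.07 for IL-17 and 0.0077 for IL-32. IKK subunits, the related kinase TBK1, IκB proteins and NF-κB proteins, which include the branch after TAK1, had positive differences in 4 of 13 peptides with IL-17 and 6 of 13 with IL-32. MAP kinase kinases, which include targets of TAK1 and Cot, had them in 2 of 3 with each cytokine. MAP kinases had them in 6 of 9 with IL-17 and 4 of 8 with IL-32, and their targets in 2 of 5 and 1 of 5. Other MAP kinase kinase kinases, the class of TAK1 and Cot, had them in 3 of 6 and 1 of 6. The 3 peptides of the 51 with the smallest p for IL-17 were ASK1 S83, from a stress-activated kinase of that class, with -0.33 ± 0.21, NFkB-p105 S337, from the protein that holds Cot, with -0.12 ± 0.08, and SEK1 S80, from a kinase of JNK, with 0.12 ± 0.10. For IL-32 they were NFkB-p65 S536, a site that IKK phosphorylates, with -0.58 ± 0.15, NFkB-p105 S337 with -0.32 ± 0.08, and IKK-beta Y199 with 0.32 ± 0.11. The fourth with an unadjusted p under 0.05, Elk-1 T417 at -0.39 ± 0.15, was named after its values were seen. For IL-32 against IL-17 they were NFkB-p65 S536 with -0.48 ± 0.15, IKK-beta Y199 with 0.32 ± 0.11 and B-Raf T598, from a kinase that phosphorylates MEK, with -0.25 ± 0.09. Each of these values is larger in size than the largest difference of any member in the same comparison, except those of NFkB-p105 S337 and SEK1 S80 with IL-17, and none passed after adjustment (limma, adjusted p = 0.997 for IL-17, 0.996 for IL-32 and 0.997 for IL-32 against IL-17). Because these peptides were picked by their small p from 51, no conclusion about the members is drawn from their size.

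**Figure D4:**
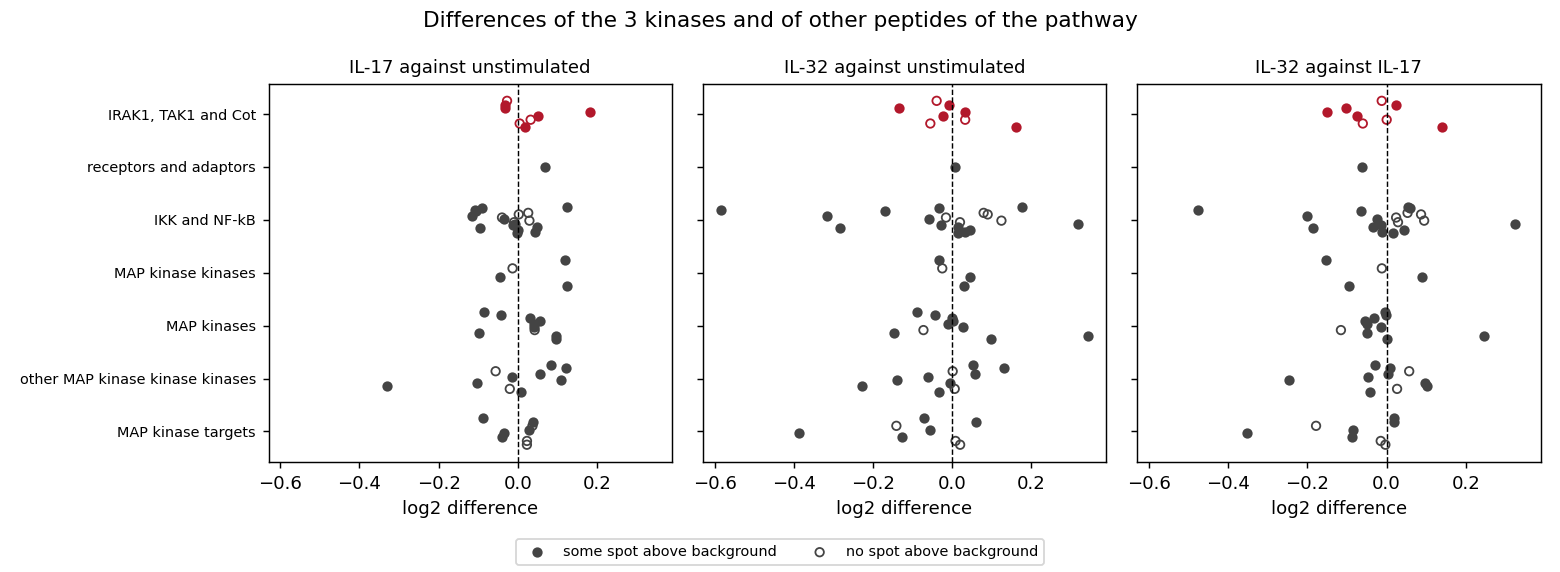
Log2 difference (limma fit, n = 2 arrays per group) of the 8 peptides of IRAK1, TAK1 and Cot (red) and of 51 other peptides of the pathway by role (grey), with open circles for peptides without a spot above background. The members lie from -0.15 to 0.18 over the panels, and the value farthest from 0 is that of NFkB-p65 S536 with IL-32, at -0.58.

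The 12 differences of the 4 members above background were recomputed under 17 alternatives, and each changed sign in at least 1 of them. Of 204 values, 39 had the opposite sign, 8 of these without normalization between arrays and 6 with foreground divided by background. A sign could not turn with a replicate block, without the group not compared, or with only peptides above background on every array. These alternatives leave each difference as it is by construction. In the deposited value table all 12 had the same sign as reported, with 0.33 ± 0.20 for T209 and -0.23 ± 0.49 for T387 with IL-17, and -0.53 ± 0.49 for T387 with IL-32. Without normalization the IL-17 difference of all 4 members passed as lower, with -0.51 at T209 and -0.65 at Cot S400, like 293 of the 298 peptides, whose median was then -0.59.

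**Figure D5:**
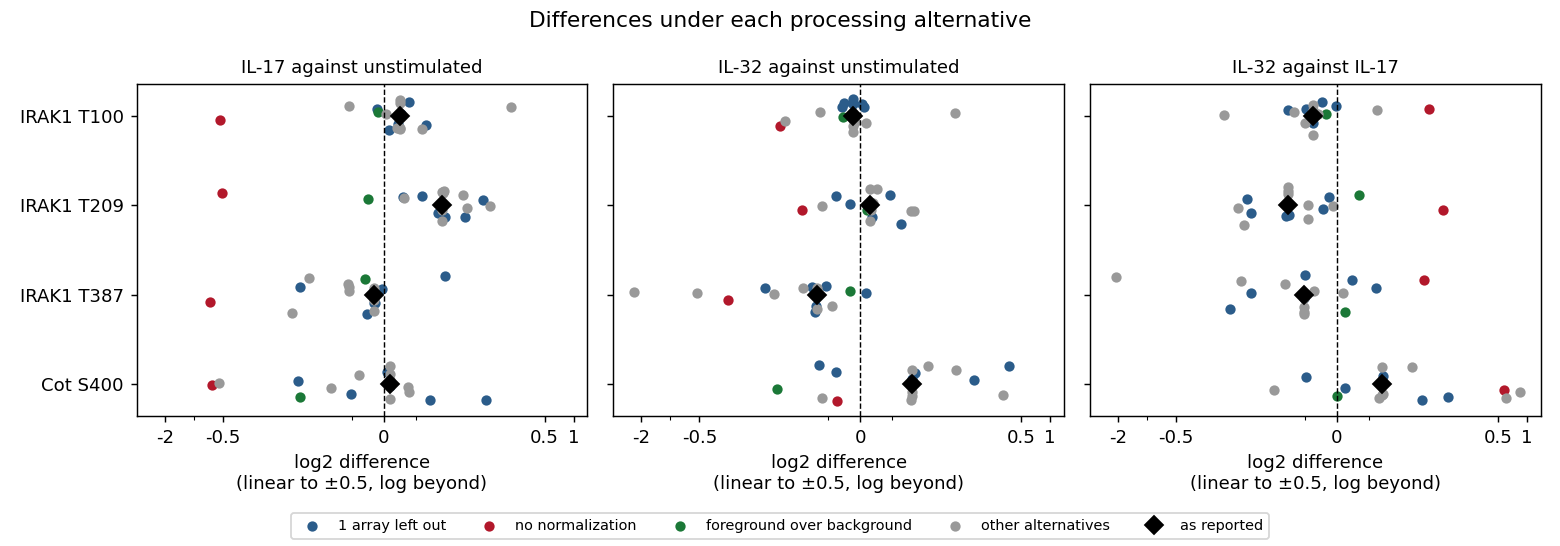
Log2 difference of the 4 peptides above background in each comparison under 17 processing alternatives (blue 1 array left out, red no normalization, green foreground over background, grey others), with the reported value as a black diamond; the axis is linear to 0.5 on either side of 0 and logarithmic beyond. Each of the 12 sets of points spans 0, and T387 reaches -2.40 for IL-32 with spots floored at 1.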

How the data were processed

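Peptide arrays of 6 THP-1 lysates were analysed. Intensities were deposited as the mean foreground and mean local background of each spot in 1 channel, per the file headers, with 3 spots per peptide. The deposited value table holds a signal that equals the mean of foreground minus background divided by 1 number per array, with a floor of 0.01, as comparison with the intensities showed; the sources used here name neither that number nor the scanner and image software. From the intensities, background was corrected with normexp (offset 50), 2 non-human peptides were left out, spots were quantile-normalized on the log2 scale and the 3 spots averaged. Groups were compared with limma 3.58.1 under R 4.3.3, using a single model of the 6 arrays that had no block term. It had 3 residual plus 2.82 prior degrees of freedom. The p-values are two-sided and were adjusted by Benjamini-Hochberg across 298 peptides. The steps were tested on simulated data whose planted changes were larger than any difference in this fit, which does not test differences of this size.

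The replicate numbers in the titles were taken as the experiments that the design text names. The deviations of same-numbered arrays from their group means correlated at 0.18 (unstimulated with IL-17), 0.022 (unstimulated with IL-32) and 0.39 (IL-17 with IL-32). Nothing states that arrays of a number shared a slide or day, so p-values measure the spread between these arrays. Signal over background stands for depth, and 26.1% to 35.4% of spots per array were below background. The number of arrays limits the precision. A peptide whose mean foreground exceeded its background on no array of either group has no fold. The members, the pathway list and the rule for named peptides (all members, the 3 smallest p of the pathway list per comparison, and the 3 nearest peptides of each member) were chosen with earlier results of these data known. Of the proteins of the pathway list, those not listed on the array have no value. Gene names come from a RefSeq table of GRCh38.p14, where IRAK1 matched a symbol and TAK1 and Cot synonyms, with the accession deciding between genes that share one. Peptide sequences and array positions were not used here.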

Additional observations from a re-analysis of the deposited data

How the results depend on the processing

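With quantile normalization and normexp, 0 peptides passed the adjusted threshold or the criteria of the study in each comparison. Without normalization between arrays, 293 passed the threshold and 153 the criteria for IL-17, 0 and 3 for IL-32, and 4 and 17 for IL-32 against IL-17. Numbers at the criteria for IL-17, IL-32 and IL-32 against IL-17 were 1, 10 and 8 without background subtraction, 4, 3 and 4 with subtraction floored at 1 (with 1 past the threshold in the last) and 1, 3 and 3 in the deposited value table; an offset of 10 gave 1 for IL-32. Leaving out 1 array gave 0 to 2, 1 to 3 and 0 to 1. The cause was not tested.

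Among the members, signs turned as follows on the log2 scale. Without normalization, IL-17 gave -0.65 for Cot S400, -0.53 for T100, -0.51 for T209 and, past the threshold with its sign kept, -0.68 for T387; IL-32 gave -0.074 for Cot and -0.18 for T209; IL-32 against IL-17 gave 0.29, 0.33 and 0.27 for T100, T209 and T387. With foreground over background, IL-17 gave -0.26 for Cot, -0.018 for T100 and -0.048 for T209, IL-32 gave -0.26 for Cot, and the direct comparison 0.070 for T209 and 0.027 for T387. Without background subtraction Cot was -0.16 for IL-17 and T100 0.29 for IL-32. With subtraction floored at 1, Cot was -0.55 and T100 -0.11 for IL-17, and T100 was 0.017 for IL-32 and 0.13 for the direct comparison. With the median of the spots, Cot was -0.12 and T209 -0.12 for IL-32, and Cot was -0.20 and T387 0.019 for the direct comparison. Median scaling gave -0.077 for Cot with IL-17.

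Leaving out 1 array gave these ranges where a sign turned. For IL-17 they were -0.27 to 0.32 (Cot), -0.020 to 0.13 (T100) and -0.26 to 0.19 (T387). For IL-32 they were -0.13 to 0.46 (Cot), -0.057 to 0.010 (T100), -0.076 to 0.13 (T209) and -0.30 to 0.018 (T387). For the direct comparison they were -0.096 to 0.35 (Cot) and -0.33 to 0.12 (T387). Where the sign held, they were 0.060 to 0.31 for T209 with IL-17, and -0.28 to -0.025 (T209) and -0.15 to -0.0021 (T100) for the direct comparison. A replicate block, a fit without the group not compared, or leaving out dim peptides leaves each difference as it is by construction, and the replicate block changed no call (0 past the threshold). Signal over background limits the 4 members below background to no fold.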
